A study of Mus musculus with 9 samples.

Results

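The 39 mouse Hox genes are the subject here, chosen by symbol alone, as every gene named Hoxa, Hoxb, Hoxc or Hoxd followed by a number. They are 39 of the 49585 genes in the files: 11 in cluster A on chromosome 6, 10 in cluster B on chromosome 11, 9 in cluster C on chromosome 15 and 9 in cluster D on chromosome 2 (build GRCm38). Their polyA RNA was measured in 9 RNA-seq libraries of organoids, small epithelial structures grown in 3 dimensions, from flow-sorted prostate basal cells of C57BL/6J mice after 5 days of culture. In RD7 the medium held 500 ng/ml R-spondin1, a secreted protein that amplifies Wnt signalling, and 100 nM of the androgen dihydrotestosterone (DHT). In R it held 500 ng/ml R-spondin1 and no DHT, and in BM, the basement medium, neither. All 3 media were advanced DMEM/F12 with B27, N-acetylcysteine, EGF, the ALK5 inhibitor A83-01, the BMP antagonist Noggin and the ROCK inhibitor Y-27632, so BM is not an untreated tissue. Each medium had 3 libraries; whether they came from separate mice or cultures is not in the labels, and the p-values then reflect only library-to-library spread, which may be technical.

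Hox proteins are homeodomain transcription factors that mark position along the body. Genes at the 3′ end of a cluster carry low paralog numbers and act toward the head, while genes at the 5′ end, up to paralog group 13, act toward the tail. Group 13 genes are expressed in the hindgut, the genital region and the urogenital sinus, from which the prostate buds, and mouse Hoxb13, Hoxa13 and Hoxd13 are known from mutants to take part in prostate growth or differentiation. Adult epithelium keeps much of the Hox pattern of its place of origin.

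Levels are the deposited FPKM, reads per kilobase of exon scaled to the library's total of counted reads, which puts genes of different length on 1 scale. Comparisons were made with limma on log2(FPKM + 0.5), with Benjamini-Hochberg adjustment over all 15867 genes tested. Genes are named as called where the adjusted p fell below 0.05. The pseudocount of 0.5 makes the fold changes of genes near or below 0.5 FPKM smaller than the ratio of their levels. The libraries held 16894535 to 19102843 counted reads in RD7, 15961444 to 23256008 in R and 6505859 to 24141017 in BM, where library 1 was the shallowest. Keratin 5 lay between 2292 and 2459 FPKM in RD7, 3417 and 3525 in R, and 2363 and 2945 in BM, and was thus high in every library. Of the 8 basal markers, 4 fell and none rose in RD7 against R, and 5 fell and 1 rose in RD7 against BM. The 1 that rose was Krt15, between 4229.7 and 5105 FPKM in RD7, 4311 and 4702 in R, and 2882 and 3212 in BM. Among those that fell, Itga6 lay between 11.4 and 19.0 FPKM in RD7, 33.5 and 41.0 in R, and 35.1 and 65.2 in BM. Trp63 lay between 22.2 and 33.4 in RD7, 39.3 and 54.2 in R, and 31.3 and 51.4 in BM. The Trp63 call was lost in 6 of 17 other settings in RD7 against R and in 10 of 17 in RD7 against BM. The list of 8 luminal markers summed to 2465 to 2999 FPKM in RD7, 1977 to 2333 in R and 2446 to 3160.1 in BM. Of these 8, 5 rose and 2 fell in RD7 against R, and 4 rose and 2 fell in RD7 against BM. Of all tested genes 31.1% were called in RD7 against R, and 21.6% higher and 25.4% lower in RD7 against BM. Pbsn, a secreted prostate protein, had 1.74 to 2.35 FPKM in RD7, 0 to 0.0953 in R and 0 in BM. Krt18 and Cd24a fell in RD7 against R, but the Krt18 call was lost in 9 of 17 other settings. Krt18 had 551 to 754 FPKM in RD7 and 821 to 999 in R, and Cd24a 119.7 to 174 in RD7 and 219.6 to 250.4 in R. Mesenchymal markers, whose cells also express Hox genes, summed to 67.6 to 95.3 FPKM in RD7, 25.9 to 31.6 in R and 27.1 to 36.6 in BM over 14 genes. Decorin (Dcn) made up 63.9 to 91.7 FPKM of that sum in RD7, 18.8 to 23.7 in R and 3.91 to 6.24 in BM. Dcn was the only one of the 11 tested mesenchymal markers that rose in RD7 against R, and 6 fell, among them Acta2 (0.973 to 1.53 FPKM in RD7, 3.03 to 4.82 in R, 9.67 to 16.3 in BM) and Fn1 (0.0717 to 0.335 in RD7, 0.839 to 1.23 in R, 7.71 to 16.4 in BM). The collagens Col1a1, Col1a2 and Col3a1 and the receptors Pdgfra and Pdgfrb were below 0.5 FPKM in all 9 libraries. Endothelial markers summed to at most 0.349 FPKM in RD7, 0.536 in R and 0.216 in BM, and leukocyte markers to at most 6.19, 6.69 and 4.44 FPKM in the same media. The part of any of these cells in the Hox differences was not tested. In bulk RNA, fewer cells of a type and less RNA per cell cannot be told apart.

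The organoids carried a Hox profile weighted to the 5′, tail-end genes of clusters A, B and D, and almost no cluster C. Of the 39 genes, 28 had reads in every library, 16 averaged at least 1 FPKM and 6 at least 10 FPKM. The 6 were Hoxb13, Hoxa10, Hoxd13, Hoxa13, Hoxa11 and Hoxa9. Paralog groups 9 to 13, 16 genes, made up 93.9 ± 0.477% of the summed Hox FPKM in RD7, 85.9 ± 0.486% in R and 83.0 ± 1.11% in BM (SD, n = 3 each). Without Hoxb13 these shares were 81.6 ± 0.507% in RD7, 82.2 ± 0.592% in R and 78.9 ± 2.10% in BM. Within cluster A the rank correlation between mean FPKM and paralog number was 0.90 in RD7, 0.90 in R and 0.92 in BM over 11 genes, within cluster B 0.64, 0.61 and 0.60 in the same media over 10 genes, and within cluster D 0.77, 0.72 and 0.70 over 9 genes. These are descriptions over neighbouring genes of the same libraries. The steps along a cluster were uneven: in every library Hoxa10 stood above Hoxa11 and Hoxa13, and Hoxd12 stood below both of its neighbours. Hoxa7 averaged 5.87 ± 1.19 FPKM in RD7, 7.06 ± 1.27 in R and 4.27 ± 1.41 in BM. Hoxa2, Hoxa3 and Hoxa4 averaged below 1 FPKM in each medium.

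**Figure D1:**
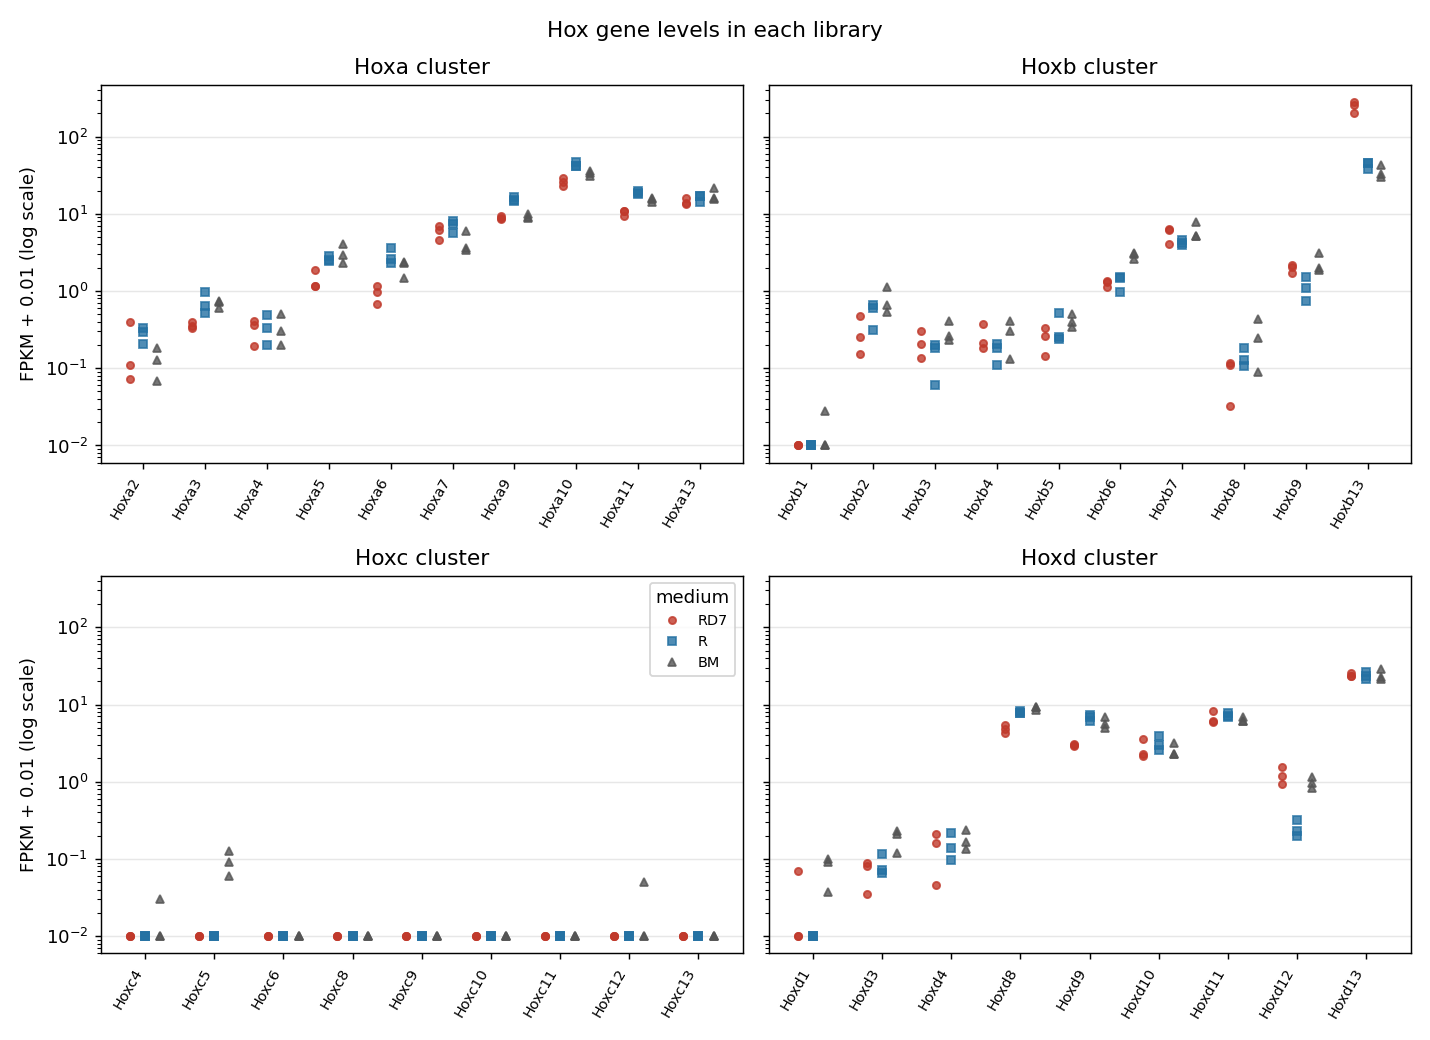
FPKM + 0.01 on a log axis for 38 Hox genes in each of the 9 libraries, ordered by paralog number within the 4 clusters; points at the bottom are genes listed at 0. Levels are mostly higher toward the 5′ end of clusters A, B and D, in uneven steps and with Hoxa10 highest in cluster A. The Hoxc panel is nearly empty, and Hoxb13 in RD7 lies above every other point.

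Cluster C stood at the detection limit. Its 9 genes together had 16 reads of 109393 Hox reads in the 9 libraries, and Hoxc6, Hoxc8, Hoxc9, Hoxc10, Hoxc11 and Hoxc13 had 0 reads in all of them. All 16 reads lay in BM: 14 in Hoxc5, found in all 3 BM libraries (0.0498, 0.0805 and 0.116 FPKM), and 1 each in Hoxc4 and Hoxc12. A count of 3 reads, the most that a count of 0 allows, corresponds to between 0.0402 and 0.447 FPKM for these genes, depending on gene and library, so a gene listed at 0 may still be present up to that level. The group 13 level therefore rested on 3 of its 4 genes.

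After the filter on low values 26 Hox genes were tested: all 11 of cluster A, 8 of cluster B (not Hoxb1 or Hoxb8), 7 of cluster D (not Hoxd1 or Hoxd3) and none of cluster C. Hoxb8 averaged 0.0759 ± 0.0464 FPKM in RD7, 0.131 ± 0.0400 in R and 0.246 ± 0.174 in BM. The other 3 untested genes of clusters B and D lay below 0.3 FPKM in every library.

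With DHT added to R-spondin1, Hoxb13 rose and 6 cluster A and 2 cluster D genes fell, while Hoxa13 and Hoxd13 were not called. Between RD7 and R, 3 Hox genes rose (Hoxb13, Hoxd12, Hoxb9) and 8 fell (Hoxa3, Hoxa5, Hoxa6, Hoxa9, Hoxa10, Hoxa11, Hoxd8, Hoxd9), and 15 were not called. That is 42.3% of the tested Hox genes, where 31.1% of all tested genes were called; 13.4% of all genes were called higher and 17.7% lower. Higher genes were 43.0% of all calls, a share that was 54.0% with median-of-ratios scaling. The median log2 fold change was -0.18 over the tested Hox genes and -0.09 over all tested genes. In cluster A all 11 genes had a fold change below 0 in the fit reported, and 6 were called lower. Of the 11, Hoxa4 lay at only -0.02 and changed sign in 4 of 16 other settings. In cluster B 2 were called higher and none lower, and in cluster D 1 was called higher and 2 lower. RD7 and R libraries did not overlap for 3 Hox genes that were higher and 9 that were lower, against 21.7% and 30.1% of all tested genes.

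**Figure D2:**
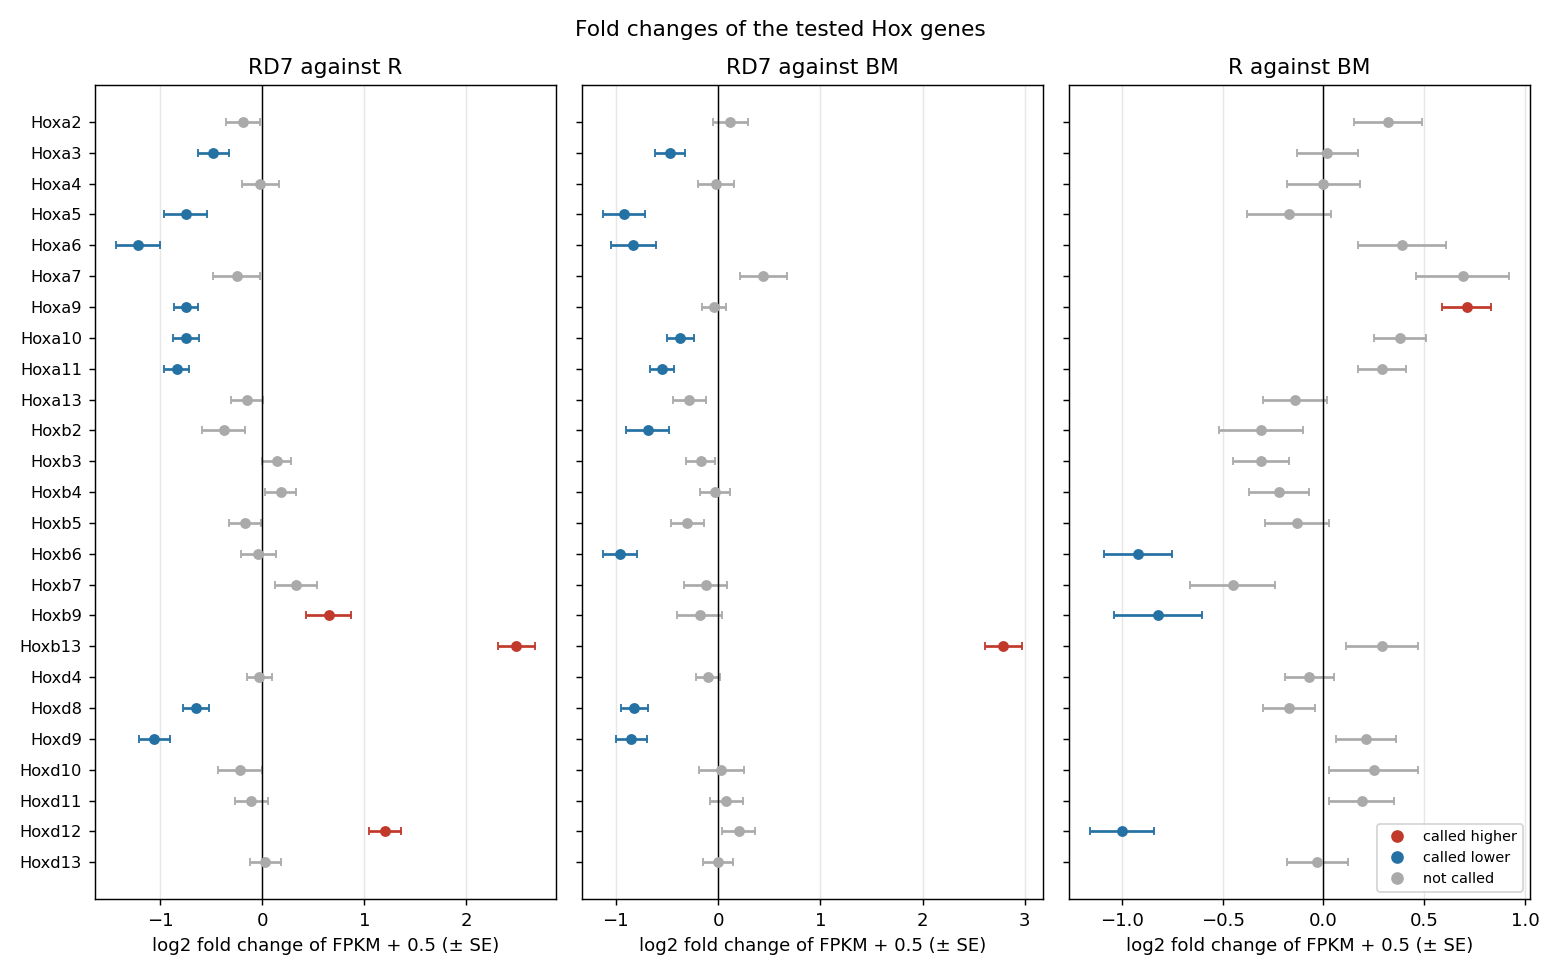
Log2 fold change of FPKM + 0.5 with its standard error for 25 tested Hox genes in each comparison, 3 libraries a medium; red points were called higher, blue points lower and grey points not called, and each panel has its own horizontal scale. In RD7 against R every cluster A point shown lies left of 0, and Hoxb13 lies farthest right at 2.49.

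Hoxb13 (chr11:96194316-96197447, plus strand) is the tail-end gene of its cluster, and its human counterpart is an androgen receptor partner in prostate cells. It had 200.3, 259.5 and 279 FPKM in RD7, 45.6, 45.7 and 37.8 FPKM in R, and 30.1, 33.0 and 42.7 FPKM in BM. Every RD7 library was above every R and BM library, and R and BM overlapped. Its mean was 5.72-fold higher in RD7 than in R (log2 fold change 2.49 ± 0.18, SE; limma adjusted p 3.5e-06) and 6.99-fold higher than in BM (2.79 ± 0.18; adjusted p 1.7e-06). It ranked at the 98.8th percentile of tested genes in RD7, the 89.9th in R and the 87.5th in BM. None of its exon bases is shared with another annotated gene.

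The other expressed group 13 genes gave no call in any of the 3 comparisons. Hoxa13, a regulator of limb, hindgut and genital development, had 13.3, 13.6 and 16.2 FPKM in RD7 and 16.8, 14.3 and 16.8 FPKM in R (log2 fold change -0.15 ± 0.16; limma adjusted p 0.498). Hoxd13, its counterpart in cluster D, had 23.1, 23.5 and 25.6 FPKM in RD7 and 23.1, 26.5 and 21.2 FPKM in R (0.03 ± 0.15; adjusted p 0.893). In BM Hoxa13 had 21.5, 15.5 and 16.2 FPKM and Hoxd13 21.5, 28.7 and 22.6 FPKM. Both genes' libraries overlapped between media. The summed level of group 13 was 285 ± 43.4 FPKM in RD7, 82.6 ± 5.80 in R and 77.2 ± 4.22 in BM.

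**Figure D3:**
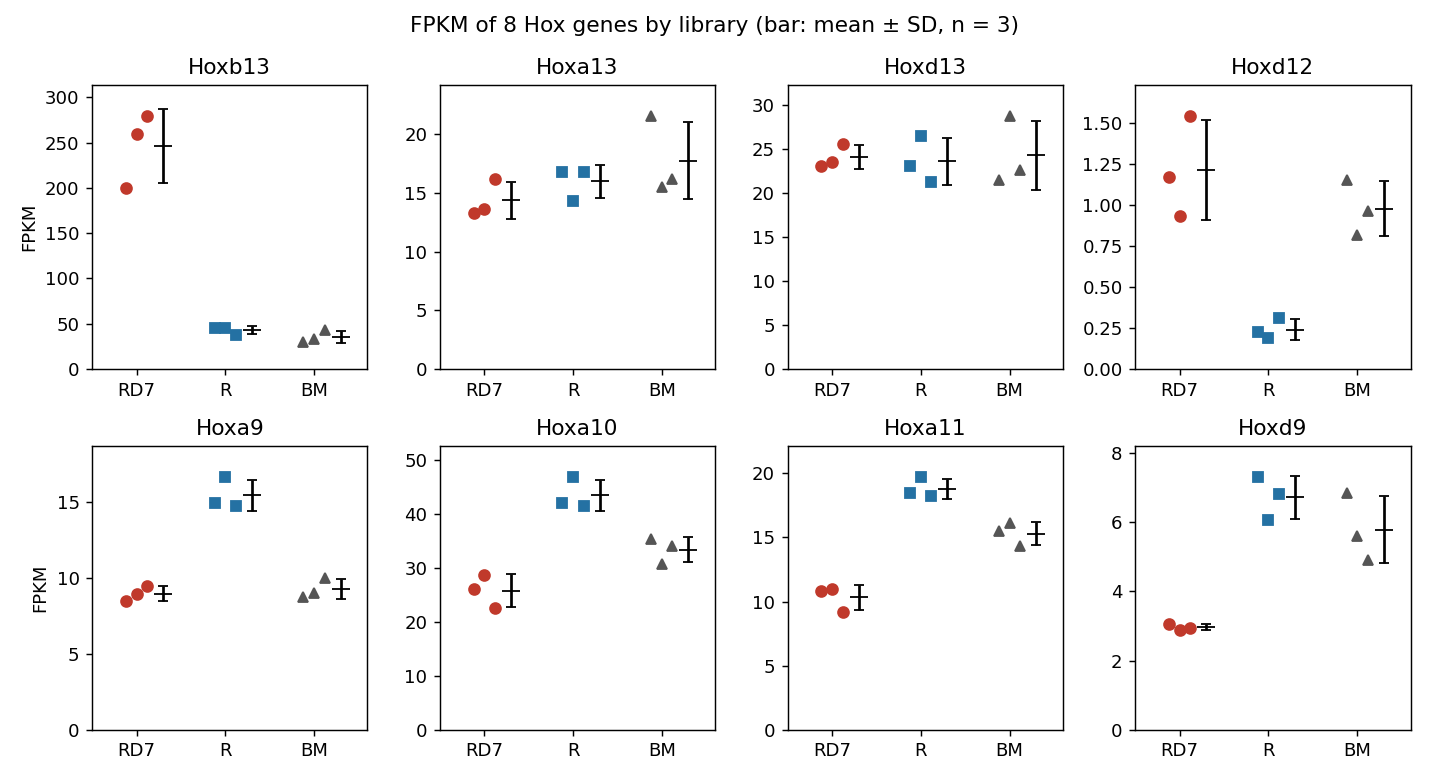
FPKM of 8 Hox genes in each library, RD7, R and BM from left to right, with the mean and SD of 3 libraries as a bar; each panel has its own axis from 0. Hoxb13 is high in RD7 alone, Hoxd12 is low in R alone, Hoxa9 is high in R alone, and Hoxa13 and Hoxd13 overlap across media.

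Groups 9 to 11 of cluster A fell with DHT. Hoxa10 (chr6:52231197-52240854, minus strand), which patterns the uterus and the male accessory glands in mice, had 26.1, 28.6 and 22.6 FPKM in RD7, against 42.0, 46.8 and 41.5 FPKM in R (-0.75 ± 0.13; limma adjusted p 0.0019). Hoxa11, needed for uterine, kidney and limb development, had 10.8, 11 and 9.21 FPKM in RD7, against 18.5, 19.7 and 18.2 FPKM in R (-0.84 ± 0.12; adjusted p 0.00062). Hoxa9, best known from blood stem cells, had 8.44, 8.92 and 9.45 FPKM in RD7, against 14.9, 16.6 and 14.7 FPKM in R (-0.75 ± 0.12; adjusted p 0.0014). For each of these 3 genes every RD7 library was below every R library, at 59.3%, 54.9% and 58.1% of the mean in R. Hoxa11 shares 35.0% of its exon bases with Hoxa11os on the other strand, and the library kit does not mark strand; Hoxa11os itself averaged 14.5 ± 1.75 FPKM in RD7 and 18.2 ± 0.933 in R and was not called (adjusted p 0.139). Hoxa10 shares none of its exon bases and Hoxa9 1.52%.

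Of cluster D, the genes of groups 8 and 9 fell. Hoxd9 (chr2:74697727-74700208, plus strand) had 3.06, 2.89 and 2.94 FPKM in RD7, against 7.30, 6.06 and 6.81 FPKM in R (-1.06 ± 0.15; limma adjusted p 0.00055). Hoxd8 had 5.38, 4.86 and 4.31 FPKM in RD7, against 8.22, 7.68 and 7.74 FPKM in R (-0.65 ± 0.13; adjusted p 0.0048). Neither gene's groups overlapped. Hoxd10 and Hoxd11, between Hoxd9 and Hoxd12 in the cluster, were not called: Hoxd10 averaged 2.66 ± 0.821 FPKM in RD7 and 3.14 ± 0.657 in R, and Hoxd11 6.79 ± 1.33 in RD7 and 7.30 ± 0.473 in R.

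Hoxd12 (chr2:74675013-74677705, plus strand), a limb and genital gene, rose, while its neighbours Hoxd11 and Hoxd13 were not called. It had 1.17, 0.930 and 1.54 FPKM in RD7, against 0.223, 0.187 and 0.310 FPKM in R (log2 fold change 1.20 ± 0.16; limma adjusted p 0.00036). In BM it had 1.15, 0.817 and 0.966 FPKM, which RD7 overlapped. R was thus the medium that stood apart, and the size of the fitted change in RD7 against R depended on the setting: 0.83 with a pseudocount of 1, 1.94 with 0.1 and 2.29 with limma-voom on the reads read back.

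Among the genes of lower paralog number, Hoxa6, an axial patterning gene, had the lowest fold change of any tested Hox gene. It had 1.15, 0.659 and 0.948 FPKM in RD7, against 2.58, 2.31 and 3.54 FPKM in R (-1.22 ± 0.22; limma adjusted p 0.0021). Hoxa5, known for its part in lung and axial development, had 1.85, 1.14 and 1.14 FPKM in RD7 and 2.84, 2.45 and 2.53 FPKM in R (-0.75 ± 0.21; adjusted p 0.023). Hoxa3, a gene of the pharyngeal region, had 0.325, 0.339 and 0.384 FPKM in RD7 and 0.625, 0.965 and 0.514 FPKM in R (-0.48 ± 0.15; adjusted p 0.032). The RD7 libraries of all 3 lay below all R libraries. The Hoxa5 call was lost without R 1, R 2, R 3, RD7 2 or RD7 3 (adjusted p 0.073, 0.055, 0.06, 0.077 and 0.08). The Hoxa3 call was lost without R 1, R 2, RD7 1, RD7 2 or RD7 3 (0.059, 0.110, 0.074, 0.081 and 0.065), and was 0.228 with the length trend removed. Hoxa3 shares 27.1% of its exon bases with other annotated genes, and Hoxa5 and Hoxa6 share none.

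Cluster B apart from Hoxb13 was low. Hoxb9, a gene of thoracic patterning, had 2.13, 1.71 and 2.05 FPKM in RD7, against 0.730, 1.07 and 1.49 FPKM in R (0.65 ± 0.22; limma adjusted p 0.047). Its RD7 libraries lay above its R libraries, but without R 1, R 2, RD7 1, RD7 2 or RD7 3 the adjusted p was 0.165, 0.110, 0.104, 0.07 and 0.119. Hoxb7 averaged 5.51 ± 1.29 FPKM in RD7 and 4.21 ± 0.284 in R, and Hoxb6 1.24 ± 0.115 in RD7 and 1.31 ± 0.304 in R, and neither was called. The sum of cluster B without Hoxb13 was 9.76 ± 1.20 FPKM in RD7, 7.89 ± 0.339 in R and 13.2 ± 2.04 in BM.

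The make-up of the Hox transcripts differed most between RD7 and the other media. Summed Hox FPKM was 368 ± 44.1 in RD7, 208 ± 9.46 in R and 185 ± 7.37 in BM. Hoxb13 alone was 66.7 ± 3.41% of it in RD7, 20.6 ± 1.30% in R and 19.0 ± 2.86% in BM. Without Hoxb13 the sums took another order, 121 ± 4.92 FPKM in RD7, 165 ± 5.16 in R and 149 ± 3.23 in BM. Cluster A summed to 68.8 ± 3.17 FPKM in RD7, 108 ± 3.75 in R and 86.6 ± 5.33 in BM, and the 3 media did not overlap. Cluster D summed to 42.7 ± 1.52 FPKM in RD7, 49.1 ± 2.28 in R and 49.2 ± 2.64 in BM. With 3 libraries a medium an exact permutation test of a sum cannot go below a p of 0.1, so none was run.

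**Figure D4:**
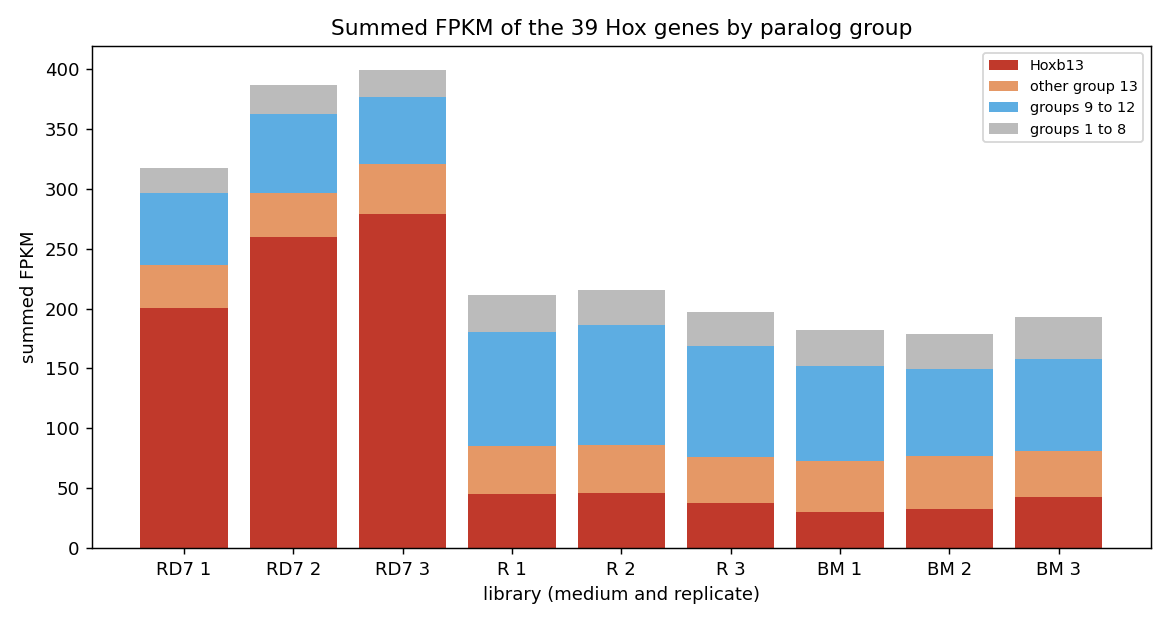
Summed FPKM of the 39 Hox genes in each library, stacked by Hoxb13, the other group 13 genes, groups 9 to 12 and groups 1 to 8. The Hoxb13 block fills most of the RD7 bars and a much smaller part of the R and BM bars, and the blocks for groups 9 to 12 and groups 1 to 8 are shorter in RD7.

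R-spondin1 alone moved fewer Hox genes. Between R and BM, 1 Hox gene rose (Hoxa9) and 3 fell (Hoxd12, Hoxb6, Hoxb9), which is 15.4% of the 26 tested, where 10.0% of all tested genes were called, 4.39% higher and 5.64% lower. The median log2 fold change was -0.01 over the tested Hox genes and 0.02 over all genes, with 13 Hox genes above and 13 below 0. R and BM libraries did not overlap for 5 Hox genes that were higher and 6 that were lower, against 15.9% and 14.4% of all tested genes. Cluster A had 9 of 11 fold changes above 0 and cluster B 7 of 8 below 0. The 9 included Hoxa4 at 0.00 and Hoxa3 at 0.02, which changed sign in 6 of 16 and 2 of 17 other settings. This comparison shares the R libraries with the one above, so a gene that stands apart in R moves in opposite directions in the pair, as Hoxa9, Hoxd12 and Hoxb9 did.

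Hoxa9 had 14.9, 16.6 and 14.7 FPKM in R, against 8.73, 8.97 and 9.97 FPKM in BM (0.71 ± 0.12; limma adjusted p 0.0045). Hoxd12 had 0.223, 0.187 and 0.310 FPKM in R, against 1.15, 0.817 and 0.966 FPKM in BM (-1.0 ± 0.16; adjusted p 0.0029). Hoxb6, an axial gene also expressed in lateral mesoderm, had 1.5, 0.963 and 1.48 FPKM in R, against 2.58, 3.10 and 3.01 FPKM in BM (-0.92 ± 0.17; adjusted p 0.0054). R and BM libraries did not overlap for any of the 3. Hoxb9 had 0.730, 1.07 and 1.49 FPKM in R, against 3.11, 1.88 and 1.98 FPKM in BM (-0.82 ± 0.22; adjusted p 0.04), and without BM 1, R 1, R 2, RD7 1 or RD7 3 its adjusted p was 0.135, 0.173, 0.125, 0.055 and 0.065. Hoxa10 had 42.0, 46.8 and 41.5 FPKM in R and 35.3, 30.8 and 34.0 FPKM in BM, and Hoxa11 18.5, 19.7 and 18.2 FPKM in R and 15.5, 16.1 and 14.3 FPKM in BM. Neither pair overlapped, but neither gene was called (adjusted p 0.104 and 0.174). Hoxa7, with 7.45, 8.09 and 5.64 FPKM in R and 3.37, 3.54 and 5.89 FPKM in BM, was not called (adjusted p 0.098), and was called without BM 3 (0.013).

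Set against BM, with the same RD7 libraries as above, RD7 showed 1 rise, Hoxb13, and 9 falls: Hoxa3, Hoxa5, Hoxa6, Hoxa10, Hoxa11, Hoxb2, Hoxb6, Hoxd8 and Hoxd9. That is 38.5% of the tested Hox genes. Of all 15867 tested genes 7455 were called, 21.6% higher and 25.4% lower, so the Hox share lay below that of all genes. The medians were -0.17 for the tested Hox genes and -0.07 for all genes. Hoxd8, with 5.38, 4.86 and 4.31 FPKM in RD7 against 9.24, 8.36 and 9.20 FPKM in BM, fell by 0.82 on the log2 scale (limma adjusted p 0.0011). Hoxb6 had 1.34, 1.28 and 1.12 FPKM in RD7 against 2.58, 3.10 and 3.01 FPKM in BM (-0.96 ± 0.17; adjusted p 0.0016). Hoxd9 fell by 0.85, Hoxa5 by 0.92, Hoxa6 by 0.83 and Hoxa11 by 0.55 on the same scale (adjusted p 0.002, 0.0066, 0.012 and 0.0062). For all of these genes RD7 lay below BM in every library. Over all 26, the libraries did not overlap for 1 Hox gene that was higher and 10 that were lower in RD7, against 23.1% and 29.3% of all tested genes.

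The remaining calls against BM were less stable. Hoxa10 had 26.1, 28.6 and 22.6 FPKM in RD7 and 35.3, 30.8 and 34.0 in BM (-0.37 ± 0.13, limma adjusted p 0.04). Without BM 1, BM 3, R 1, R 2, R 3, RD7 1 or RD7 3 the adjusted p was 0.101, 0.062, 0.066, 0.058, 0.058, 0.061 and 0.130. The Hoxa10 call was also lost with median-of-ratios scaling (adjusted p 0.106), with no filter (0.058) and with the replicate block (0.075). Hoxb2, a hindbrain gene that shares 27.3% of its exon bases with other genes, had 0.144, 0.240 and 0.458 FPKM in RD7 and 0.529, 0.653 and 1.11 in BM (adjusted p 0.025), and without BM 3, RD7 1 or RD7 2 it was 0.061, 0.077 and 0.073. Hoxa3 averaged 0.350 ± 0.0306 FPKM in RD7 and 0.674 ± 0.0767 in BM (adjusted p 0.027), and without BM 1, BM 3, RD7 1, RD7 2 or RD7 3 it was 0.071, 0.056, 0.063, 0.07 and 0.054; with the length trend removed it was 0.417, at a log2 fold change of -0.18. Hoxa9, Hoxb9 and Hoxd12, called between R and BM, were not called between RD7 and BM: Hoxa9 averaged 8.94 ± 0.504 FPKM in RD7 and 9.22 ± 0.659 in BM, Hoxb9 1.96 ± 0.222 in RD7 and 2.32 ± 0.679 in BM, and Hoxd12 1.21 ± 0.308 in RD7 and 0.979 ± 0.168 in BM.

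Sequence upstream of the start was available for 22 of the 39 genes, as 24 promoters of the RefSeq table (build GRCm38.p6; 250 bases before to 50 after each start). Hoxb13, Hoxb6 and Hoxb9 were not among them. The promoters were searched on both strands for a full androgen response element (AGAACA, any 3 bases, then TGTTCT), for its half-site AGAACA, which the full element contains, and for the TCF/LEF core CTTTGAT. No Hox promoter held the full element, which 0.00913% of all 32851 promoters held. The half-site lay in 2 (Hoxa9 and Hoxa11), with 19.0% of all promoters holding it, and the TCF/LEF core in 1 (Hoxd8, with 2 matches), with 3.73% of all holding it. Those 3 genes fell in RD7 against R, but so did Hoxa3, Hoxa5, Hoxa6, Hoxa10 and Hoxd9, whose promoters held no match. The 250 bases before the start of Hoxa9, Hoxa11 and Hoxd8, and of Hoxd12, which rose, are given 5′ to 3′ on the gene's strand. Capitals mark the matches, and Hoxd12 has none.
Hoxa9 (chr6:52227371-52227620, minus strand): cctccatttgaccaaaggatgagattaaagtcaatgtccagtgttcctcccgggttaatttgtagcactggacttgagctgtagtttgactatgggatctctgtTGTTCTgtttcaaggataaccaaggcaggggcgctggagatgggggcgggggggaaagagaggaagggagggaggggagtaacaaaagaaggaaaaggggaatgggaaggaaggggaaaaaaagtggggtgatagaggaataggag
Hoxa11 (chr6:52245811-52246060, minus strand): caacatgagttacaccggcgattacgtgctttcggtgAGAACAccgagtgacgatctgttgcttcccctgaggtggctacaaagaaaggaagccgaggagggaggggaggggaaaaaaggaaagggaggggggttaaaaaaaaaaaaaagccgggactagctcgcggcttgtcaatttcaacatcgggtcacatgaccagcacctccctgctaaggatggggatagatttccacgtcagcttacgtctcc
Hoxd8 (chr2:74704365-74704614, plus strand): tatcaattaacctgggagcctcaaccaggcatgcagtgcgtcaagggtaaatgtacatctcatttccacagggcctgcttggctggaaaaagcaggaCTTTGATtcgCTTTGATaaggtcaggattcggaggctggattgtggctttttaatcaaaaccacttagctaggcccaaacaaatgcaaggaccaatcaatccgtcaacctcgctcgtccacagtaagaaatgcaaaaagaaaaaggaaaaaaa
Hoxd12 (chr2:74674763-74675012, plus strand): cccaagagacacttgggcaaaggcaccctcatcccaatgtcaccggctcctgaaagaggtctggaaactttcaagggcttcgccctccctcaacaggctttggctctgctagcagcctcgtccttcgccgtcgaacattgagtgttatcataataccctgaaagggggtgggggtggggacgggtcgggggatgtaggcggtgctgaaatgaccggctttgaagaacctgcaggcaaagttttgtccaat
A match is a string of letters, not a shown binding site, and a window without one says only that these letters are not in it. The Hoxa9 match reads TGTTCT, the half-site on the opposite strand. The median GC content was 57.6% over the Hox promoters and 52.7% over all promoters.

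Genes around Hoxb13 rose with it. Within 200 kb of the 4 clusters 94 other genes are annotated and 35 were tested; in RD7 against R 8 rose and 1 fell, and 6 of the 8 were among the 9 tested neighbours of cluster B, where 13.4% of all tested genes were called higher and 17.7% lower. Ttll6, a tubulin-glutamylating enzyme gene whose start lies 60.5 kb on the 5′ side of Hoxb13, had 0.971, 1.49 and 0.491 FPKM in RD7, against 0.0162, 0 and 0 FPKM in R, which is 209 reads in RD7 and 1 read in R (limma log2 fold change 1.5 ± 0.20; adjusted p 0.00037). The lincRNA gene Gm11535, 16.8 kb on the same side, had 2.01, 2.29 and 1.98 FPKM in RD7, against 0.322, 0.387 and 0.593 FPKM in R (1.48 ± 0.19; adjusted p 0.00029). Atp5g1, which encodes a subunit of mitochondrial ATP synthase 118.6 kb away, had 16.2, 23.9 and 16.4 FPKM in RD7, against 8.57, 4.41 and 6.18 FPKM in R (1.51 ± 0.33; adjusted p 0.007). None of these 3 overlapped between the media. Ube2z, between Atp5g1 and Snf8, averaged 53.2 ± 3.94 FPKM in RD7 and 53.6 ± 5.28 in R and was not called.

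On the side toward Hoxb1, calls reached Hoxb9 but did not extend over the rest of the cluster. The lincRNA gene Gm53, between Hoxb13 and Hoxb9, averaged 3.03 ± 0.283 FPKM in RD7 and 1.88 ± 0.400 in R (limma adjusted p 0.025; without R 1, R 3, RD7 2 or RD7 3 it was 0.093, 0.098, 0.07 and 0.079). Snf8, the farthest of the 6, lies 159.4 kb away on the 5′ side of Hoxb13, as Ttll6 does. Snf8 averaged 18.3 ± 4.06 FPKM in RD7 and 10.7 ± 0.976 in R (limma adjusted p 0.041). Without R 1, R 2, R 3, RD7 2 or RD7 3 its adjusted p was 0.067, 0.107, 0.119, 0.120 and 0.141. The small RNA gene Gm27605 rested on 43 reads in RD7 and 10 in R (adjusted p 0.014; without R 2 or RD7 2 it was 0.056 and 0.057). Beyond Hoxb9, no gene from Hoxb7 to Hoxb2 was called in RD7 against R. At cluster D, Evx2, a homeobox gene 8.8 kb from Hoxd13, had 1.01, 1.31 and 1.1 FPKM in RD7, against 0.493, 0.277 and 0.606 FPKM in R (0.79 ± 0.16; adjusted p 0.0041), while Hoxd13 beside it was not called. Of the cluster A long RNAs, Hottip averaged 0.193 ± 0.0559 FPKM in R and 0.520 ± 0.114 in BM (adjusted p 0.019; without BM 1, R 1 or R 3 it was 0.066, 0.098 and 0.053).

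**Figure D5:**
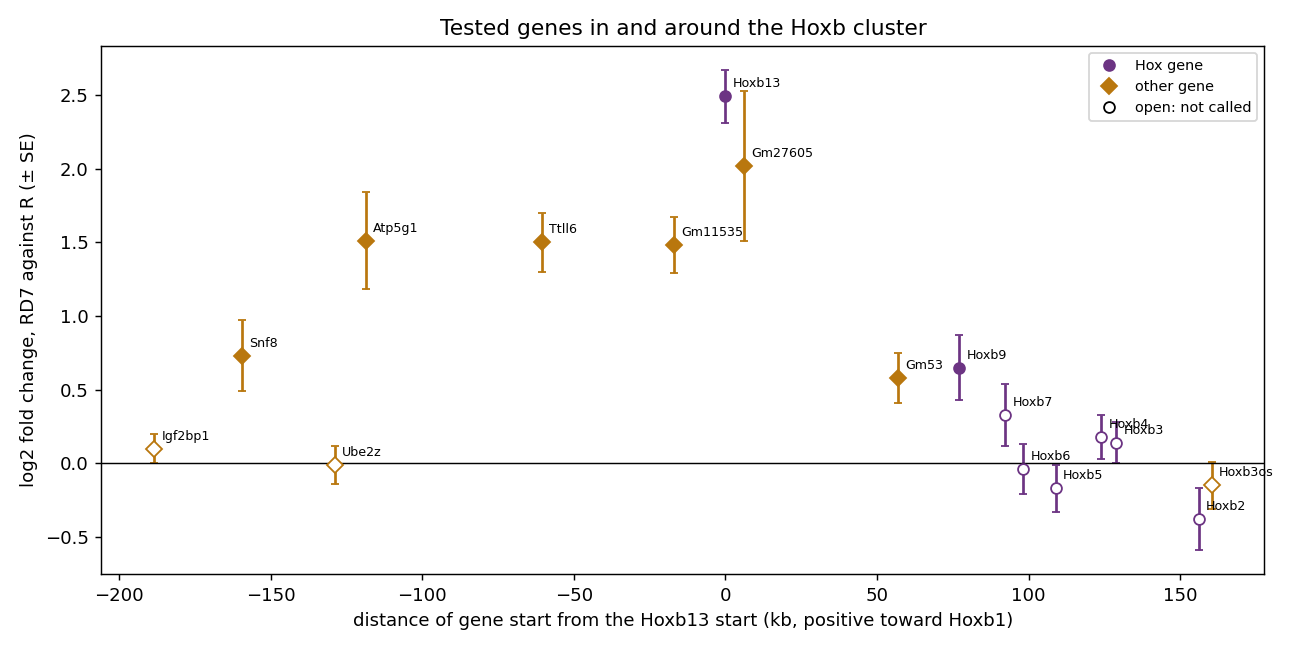
Log2 fold change in RD7 against R, with its standard error, for each tested gene in and within 200 kb of cluster B, against the distance of its start from the Hoxb13 start in kb (positive toward Hoxb1). Filled symbols were called and open ones were not; values are above 1 at Hoxb13 and at Atp5g1, Ttll6, Gm11535 and Gm27605, and every symbol from Hoxb7 onward is open.

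Hox proteins bind DNA together with TALE homeodomain partners of the Pbx, Meis and Pknox (Prep) families. Of 8 tested partner genes, 4 fell and 1 rose in RD7 against R (median log2 fold change -0.37), none was called in R against BM (-0.20), and 5 fell and 1 rose in RD7 against BM (-0.78). Of all tested genes 31.1% were called in RD7 against R, 10.0% in R against BM, and 21.6% higher and 25.4% lower in RD7 against BM. Pknox2 averaged 7.01 ± 1.63 FPKM in RD7 and 1.24 ± 0.221 in R (2.09 ± 0.22; limma adjusted p 5.9e-05). Its relative Pknox1 averaged 3.27 ± 0.322 FPKM in RD7 and 6.70 ± 0.353 in R (-0.94 ± 0.15; adjusted p 0.0011). Pbx3 averaged 1.08 ± 0.0812 FPKM in RD7 and 2.55 ± 0.222 in R, Meis2 0.768 ± 0.201 in RD7 and 1.92 ± 0.0926 in R, and Meis3 1.03 ± 0.203 in RD7 and 1.88 ± 0.193 in R (adjusted p 0.0005, 0.0013 and 0.013); without R 2 the Meis3 value was 0.052.

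Polycomb and Trithorax proteins keep Hox clusters silent or active. Of 30 tested Polycomb genes 4 fell and 1 rose in RD7 against R (median -0.20), and none was called in R against BM (0.05). Cbx2, a chromodomain subunit, averaged 5.12 ± 0.940 FPKM in RD7 and 10.6 ± 0.959 in R (-0.99 ± 0.17; limma adjusted p 0.0016). Of 14 tested Trithorax and H3K27 demethylase genes 2 fell in RD7 against R (median -0.27), Wdr5 with 19.9 ± 2.31 FPKM in RD7 and 29.2 ± 0.821 in R, and Rbbp5 with 8.39 ± 2.08 in RD7 and 13.8 ± 1.03 in R (adjusted p 0.015 and 0.014). The Wdr5 call was lost without R 2, R 3 or RD7 3 and the Rbbp5 call without R 3 or RD7 2 (adjusted p at most 0.059 and 0.057). Both shares lay below the 31.1% of all genes called.

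Retinoic acid is a textbook inducer of Hox genes, and of 11 tested upstream Hox regulators 1 rose and 2 fell in RD7 against R. That share is close to the 31.1% of all tested genes called. All 3 called genes belong to the retinoic acid pathway, but so do most genes on the list, so their pathway follows largely from how the list was written. Aldh1a1, which makes retinoic acid, averaged 184 ± 25.3 FPKM in RD7 and 15.6 ± 0.764 in R (3.51 ± 0.16; limma adjusted p 2e-07), while Aldh1a3, of the same enzyme family, averaged 37.2 ± 4.15 in RD7 and 91.8 ± 4.87 in R (-1.29 ± 0.13; adjusted p 5.1e-05). The retinoic acid receptor gene Rarb averaged 2.73 ± 0.873 FPKM in RD7 and 6.32 ± 0.508 in R (adjusted p 0.002). In R against BM Aldh1a1 rose, at 15.6 ± 0.764 FPKM in R and 6.92 ± 1.37 in BM, and Rarb fell, at 6.32 ± 0.508 in R and 14.7 ± 1.07 in BM (adjusted p 0.0014 and 0.0036). The list's medians were -0.21 in RD7 against R and 0.06 in R against BM.

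Of 28 tested homeobox genes outside the Hox clusters, 5 rose and 9 fell in RD7 against R (median log2 fold change -0.13), and 6 rose and 5 fell in R against BM (0.00), where 31.1% and 10.0% of all tested genes were called. Dlx5, active in limb and genital development, averaged 0.00823 ± 0.0143 FPKM in RD7 and 1.9 ± 0.178 in R (limma adjusted p 2.1e-07), and 1.9 ± 0.178 in R and 0.112 ± 0.0229 in BM (adjusted p 1.8e-06). Pitx1, a hindlimb regulator, averaged 0.0363 ± 0.0338 FPKM in RD7 and 1.24 ± 0.254 in R (adjusted p 8.3e-05). Isl1 averaged 0.169 ± 0.131 FPKM in RD7 and 1.18 ± 0.0626 in R, and 1.18 ± 0.0626 in R and 0.261 ± 0.132 in BM (adjusted p 0.00026 and 0.0018). Dlx5 and Isl1, like Hoxa9, were highest in R.

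Of 19 tested factors of the urogenital sinus and prostate bud, 3 rose and 7 fell in RD7 against R (median -0.30), and 1 rose and 2 fell in R against BM (0.07), where 31.1% and 10.0% of all tested genes were called. Wnt5a, a secreted Wnt that limits prostate bud growth in mice, averaged 0.392 ± 0.1 FPKM in RD7 and 5.42 ± 0.398 in R (-2.73 ± 0.15; limma adjusted p 4.4e-07). Gata2, a pioneer factor for steroid receptors, averaged 3.2 ± 0.470 FPKM in RD7 and 0.789 ± 0.132 in R (1.54 ± 0.16; adjusted p 7.1e-05), and 0.789 ± 0.132 in R and 9.20 ± 1.17 in BM (-2.91 ± 0.16; adjusted p 2.5e-06). Gata2 thus was lowest in R, as Hoxd12 was. Foxa2 averaged 0.725 ± 0.172 FPKM in RD7 and 0.0817 ± 0.0438 in R (adjusted p 0.00018). Markers of the seminal vesicle and Wolffian duct, the neighbouring male duct, summed to 0.644 to 1.13 FPKM in RD7, 0.142 to 0.345 in R and 0.818 to 1.45 in BM, with Svs3a and Svs6 at 0 in every library, and urothelial markers to 21.0 to 25.4 FPKM in RD7, 37.9 to 45.7 in R and 209 to 317 in BM; their part in the Hox differences was not tested.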

How the data were processed

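The 9 files hold FPKM per Ensembl gene as the authors deposited them. Per the submitters' processing notes, CASAVA 1.9, STAR 2.6.1a, featureCounts, edgeR 3.24.1 and build GRCm38 were used; how reads on overlapping genes were counted is not given in the sources used here. Per the labels' protocols, cDNA came from a Takara SmartSeq kit and libraries from a NEBNext Ultra II DNA kit. Symbols, coordinates and merged exon lengths came from GENCODE M21. Whole reads were read back from the FPKM steps (at least 99.988% of each library's reads, to within 0.01 read) for depth, the low-value filter and an alternative test.

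Genes at 0.5 CPM or more in at least 3 libraries were tested with limma 3.58.1 in R 4.3.3 (linear model over all 9 libraries with 6 residual degrees of freedom, robust trended eBayes) on log2(FPKM + 0.5). The fit was tested on simulated rises in the more highly expressed genes only, so that test does not cover falls or genes of low level. Named genes were every called Hox gene, the 10 of highest mean FPKM, all of group 13, and called genes of the other lists (the largest changes). The members and lists were chosen with earlier results of these data known. A ± value is the SD over the libraries of a medium or, beside a log2 fold change, the limma standard error. The detection floors cover counting error only, and reads carry no molecular identifiers. Tables were handled with pandas 2.3.3. The 17 other settings are in the closing section. Items withheld from the text are not reported here; counts and sums cover all members.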

Additional observations from a re-analysis of the deposited data

How the results depend on the processing

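Every comparison was refitted under 17 other settings: pseudocounts of 0.1 and 1, no filter, a stricter filter, median-of-ratios scaling, removal of each library's trend with gene length, limma-voom on the reads read back, a replicate block, and leaving out each library. Over tested genes, the rank correlation of gene length with a gene's deviation from its mean over all libraries differed between libraries. It was 0.398, 0.415 and -0.00951 in BM 1, 2 and 3, and -0.181, -0.0586 and 0.201 in R 1, 2 and 3. In RD7 1, 2 and 3 it was -0.155, -0.38 and -0.28, so the length trend went in part with the medium. No called Hox gene changed sign in any of the 17 settings. Calls held in all 17 settings for Hoxa9, Hoxb6 and Hoxd12 in R against BM (3 of 4 called), for Hoxa6, Hoxa9, Hoxa10, Hoxa11, Hoxb13, Hoxd8, Hoxd9 and Hoxd12 in RD7 against R (8 of 11), and for Hoxa5, Hoxa6, Hoxa11, Hoxb6, Hoxb13, Hoxd8 and Hoxd9 in RD7 against BM (7 of 10). Hoxb7 was called in R against BM and RD7 against BM with the length trend removed (adjusted p 0.017 and 0.027), and Hoxa7 in RD7 against BM without BM 3 (0.021); the cause was not tested. The summed FPKM of cluster D in RD7 was 44.6 with median-of-ratios scaling and 42.7 as deposited.

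Deviations from the group means correlated at -0.521 to 0.272 over the 9 pairs of same-numbered libraries. Pairs with different numbers ran from -0.578 to 0.578. With so wide a range, the check cannot tell whether same-numbered libraries share a mouse or culture, and the labels do not say. With the replicate block 3 Hox genes were called in R against BM, 9 in RD7 against R and 8 in RD7 against BM.

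Over all genes, 1591 were called in R against BM, against 3402 without BM 3, 930 without R 1 and 940 without R 2; 4937 in RD7 against R, against 3203 without R 2 and 3186 without R 3; and 7455 in RD7 against BM, against 4836 without RD7 2. The share called higher went to 53.2% with the length trend removed (43.0% in the fit reported) in RD7 against R, to 61.4% without BM 3 (43.7%) in R against BM, and to 52.5% with median-of-ratios scaling (45.9%) in RD7 against BM. Depth limits the low Hox genes: Hoxa2 had 18 reads over the RD7 libraries, 28 over R and 9 over BM.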
